A study of Mus musculus with 4 samples.

Results

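Acta2, Tagln, Myl9, Myh11, Cnn1, Des, Tpm1, Tpm2, Actg2 and Lmod1 encode the proteins by which smooth muscle shortens and bears load. These 10 genes were listed by name for their function, with earlier results of these libraries known, out of 30406 genes that all 4 count tables share. They were followed through single-cell RNA sequencing of the stroma of the mouse submandibular gland, taken from female C57BL6/J animals 14 days after surgery (the sublingual gland was also harvested, and age is not stated). In the ligated group, 1 library, a metal clip was left on the main ducts of both glands for that time. In the mock group, 3 libraries (mock 1, mock 2 and mock 3), the ducts were found but not clipped. All 4 suspensions had been depleted of dead cells and, with beads, of cells bearing EpCAM (found on epithelium) or Ter119 (found on red cells). No label says that the mock libraries came from separate animals, so the p-values below measure only the spread among these libraries, which may be technical.

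On mm10 (GENCODE M21) the members that the results turn on lie at chr19:34241090-34255590 (Acta2), chr9:45929619-45936058 (Tagln), chr16:14194535-14291372 (Myh11), chr9:67022590-67049406 (Tpm1) and chr4:43514711-43523765 (Tpm2).

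In a contractile cell, thin filaments of actin slide over thick filaments of myosin, and tension passes through intermediate filaments to the cell's anchors. Phosphorylation of the myosin light chain starts the cycle in smooth muscle, while tropomyosins lie along the actin filament and govern access to it. Arterial smooth muscle holds this apparatus in full, and pericytes on capillaries hold less of it. In salivary glands, myoepithelial cells that wrap the acini and ducts also carry it. Fibroblasts that take up alpha smooth muscle actin, the product of Acta2, in a wound or scar are called myofibroblasts, so the level of these genes in fibroblasts bears on whether such cells were captured here. Many of the genes are driven by serum response factor (SRF) and its partner myocardin, which bind a short DNA motif, the CArG box.

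The promoter sequences are shown first because many of these genes are known as targets of SRF. Of the 10 genes, 7 had an entry in the RefSeq promoter table (GRCm38.p6, 250 bases before to 50 after the start of the gene), and Tagln, Myh11 and Actg2 had none. Only the 250 bases before the start were searched for the CArG box, on both strands, and no other motif was searched. An exact box stood in 1 of the 7 promoters, that of Myl9, against 1.62% of 27025 genes with an entry. A box with up to 1 mismatch stood in 4 of the 7, against 21.1% of all genes. The 4 boxes are in capitals in the 30 bases around them, read 5′ to 3′ on the strand of the gene.
Myl9 (exact, chr2:156775293-156775322, plus strand): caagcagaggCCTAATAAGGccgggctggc
Acta2 (1 mismatch, chr19:34255438-34255467, minus strand): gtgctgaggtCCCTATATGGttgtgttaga
Tpm1 (1 mismatch, chr9:67049415-67049444, minus strand): gctcgggtccCCATATATAGtcatatccac
Lmod1 (1 mismatch, chr1:135324614-135324643, plus strand): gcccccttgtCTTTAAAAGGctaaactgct
In the GENCODE M21 annotation, the Myl9, Tpm1 and Lmod1 windows lie outside every gene, upstream of their own. The Acta2 window lies before the RefSeq start but within an exon that this annotation gives to Acta2 as untranslated. These matches are a description of letters and not of binding.

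The libraries held 13790 barcodes in the ligated sample and 4798 to 13194 in the mock samples, with a median of 3494 to 5411 unique molecular identifiers (UMIs, counts of captured RNA molecules) per barcode. Mock 1 stood apart from mock 2 and mock 3. The mural cluster led by Kcnj8 held 365 ligated and 133 mock 1 cells with 40 and 66 of mock 2 and mock 3, while one led by Ctnna3 held 0 and 0 with 130 and 183, so mural cells were clustered again with genes scaled within each library. Software versions differed along the same line, Cell Ranger 6.0.1 standing in the headers of the ligated and mock 1 files and 7.0.0 in the other two. Between 44 and 123 barcodes of a library also occurred in another library, with 11 to 61 shared by any pair. The doublet caller marked 742 ligated barcodes, 71 of mock 1, 0 of mock 2 and 1 of mock 3, so it did not work in those last libraries. Where a member's position against the mock range changes when doublets were instead removed by rank in every library, it is given both ways. Ratios between classes, values of the other gene lists and levels within clusters are given only with the doublets of the caller removed. The same holds for the shares of cells with UMIs, apart from that of Acta2 in fibroblasts.

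Mural cells, the cells of the vessel wall, were found by Rgs5, Notch3, Pdgfrb and other markers that exclude the 10 genes, and were clustered without the contractile genes among the variable genes. A sub-cluster led by Pln and Susd5, with 11 smooth muscle markers detected, is called smooth muscle-like, here smooth muscle cells for short: 127 ligated cells against 70, 68 and 85 from mock 1, mock 2 and mock 3. Sub-clusters led by Kcnj8 and Abcc9 or by interferon-induced genes such as Ifit3, with 10 and 11 pericyte markers detected, are called pericyte-like, here pericytes: 254 against 100, 126 and 154. A sub-cluster of 103 against 68, 59 and 88 cells, led by Ccnd1 and Procr, had 8 smooth muscle and 9 pericyte markers detected and is called intermediate mural. The fibroblast-like class held 1214 against 207, 424 and 578 cells. It did not have the same makeup in the 2 groups, because 1173 of the 1214 ligated cells fell in a cluster led by Spp1, where the mock libraries had 70, 35 and 55 cells, and most mock cells fell in a cluster led by Lsamp. A further 86 against 29, 81 and 152 mural cells stayed without a name, because they held markers of another class as well or few UMIs.

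Along the vessel wall 8 of the 10 genes were highest in smooth muscle cells, lower in intermediate cells and lowest in pericytes in every library, with a slope of their own. Levels here are raw CPM, the UMIs of a gene over all UMIs of its class, scaled like CPM with no further normalisation. Acta2 was at 14360 in the smooth muscle cells of the ligated library and at 19382, 14249 and 13620 in mock 1, mock 2 and mock 3. In pericytes it was at 376 against 889, 478 and 376, so that smooth muscle cells held 21.8 to 38.2 times as much in each library. The intermediate mural cells lay between, at 4794 against 7324, 5784 and 6214. No library of one class overlapped those of the next.

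The ratio of smooth muscle cells to pericytes differed between the members. It was highest for Acta2, for Tagln (transgelin, an actin-binding protein of smooth muscle), at 11.2 to 47.2 times, and for Myh11 (the smooth muscle myosin heavy chain), at 21.5 to 37.5 times. It was lower for Tpm2 (beta tropomyosin), at 5.94 to 9.76 times, and Lmod1 (leiomodin, which starts new actin filaments), at 5.22 to 9.42 times. The lowest ratios were those of Tpm1 (alpha tropomyosin), at 4.81 to 6.46 times, Myl9 (the regulatory myosin light chain), at 3.03 to 4.84 times, and Des (desmin, the intermediate filament of muscle), at 3.02 to 4.31 times. Pericytes thus shared the light chain, alpha tropomyosin and desmin with smooth muscle cells to a larger extent than alpha actin, transgelin and the heavy chain. These ratios are given with the doublets of the caller removed. The pericyte levels of Tagln and Acta2 behind them changed with doublets removed by rank, as given below. As a description, the median of log2 smooth muscle over pericyte among members with UMIs in both was 2.85 ± 0.30 (mean and SD of the 4 libraries).

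Cnn1 (calponin, which binds actin and restrains myosin) and Actg2 (gamma smooth muscle actin, the form of the gut wall) did not follow this slope. Cnn1 was at 270 raw CPM in smooth muscle cells of the ligated library and at 450, 227 and 158 in mock 1, mock 2 and mock 3. In intermediate mural cells only 5, 1, 0 and 0 Cnn1 UMIs were found, and in pericytes 1, 1, 0 and 0. Cnn1 thus set the smooth muscle cells apart from the intermediate cells, while for Acta2 and Tpm1 smooth muscle cells held only 2.19 to 3.00 and 1.32 to 1.56 times the intermediate level. Actg2 had 17 UMIs in the smooth muscle cells of the ligated library and 99, 11 and 16 in the mock libraries. In pericytes and intermediate mural cells it had 0 UMIs in each library, which allows at most 4.44 to 9.83 raw CPM. Across 36 class sums (9 classes, without the myoepithelial cells), Pearson's r with the mean profile of the 10 genes was 0.70 for Cnn1 and 0.64 for Actg2, and 0.97 to 0.99 for the other members.

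**Figure D1:**
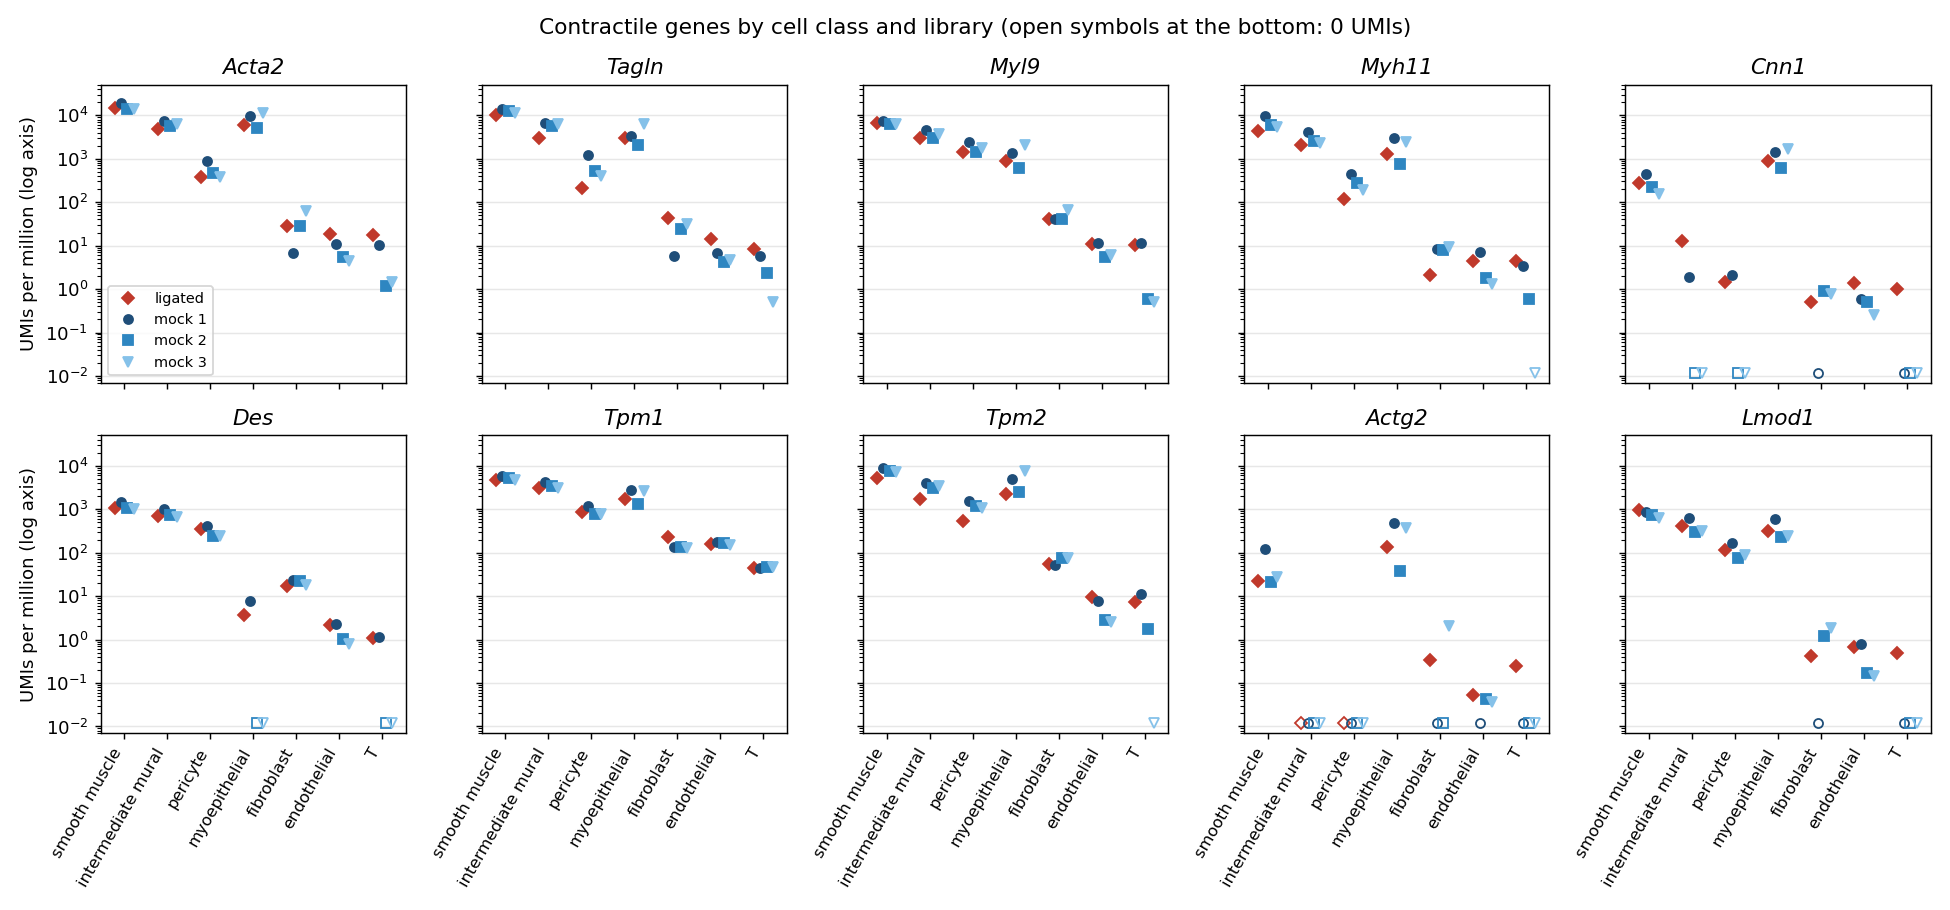
Level of each gene (raw CPM, log axis) in 7 cell classes, with 1 symbol per library. Most genes fall from smooth muscle cells to pericytes to fibroblasts, Cnn1 and Actg2 are highest in myoepithelial cells, and Des is at 0 to 7.55 raw CPM there.

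Myoepithelial-like cells, led by Krt14, Krt17 and Krt5 and numbering 60 in the ligated library and 13, 31 and 24 in the mock libraries, held a different set of the 10 genes. Cnn1 was at 910 raw CPM after ligation, against 1465, 607 and 1709 in mock 1, mock 2 and mock 3. Smooth muscle cells held 0.0925 to 0.373 times that level, so in each library Cnn1 was higher in the myoepithelial cells. Actg2 was likewise higher there in each library, at 135 against 476, 37.4 and 378 raw CPM, although the 37.4 of mock 2 rests on 4 UMIs. Acta2 reached 6037 against 9545, 5063 and 11386 raw CPM. Des stood at 3.65 against 7.55, 0 and 0 raw CPM, from 1 or 0 UMIs. Myoepithelial cells thus held calponin and both smooth muscle actins with next to no desmin, and pericytes held desmin with next to no calponin. These cells are what the EpCAM depletion left, so their number says nothing about the gland.

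Over the same 9 classes the 10 other genes most like the members were Dgkg, Parm1, Smarcd3, Hspb2, Jph2, Pdlim3, Synpo2, Gm13861, Rbpms2 and Ppp1r14a, by Pearson's r with the mean log2 profile of the members. The values of r ran from 0.97 to 0.98 over 36 sums, which share libraries and classes, and are a description. Ppp1r14a encodes an inhibitor of myosin phosphatase, Synpo2 and Pdlim3 encode actin-associated proteins of the Z-disc and dense bodies, and Jph2 joins the plasma membrane to the sarcoplasmic reticulum.

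In smooth muscle cells, ligation was compared with mock surgery to ask whether the contractile program of the vessel wall differed after 14 days of duct closure. Values here are CPM scaled by TMM, edgeR's correction for library composition. Tpm2 was at 5348 CPM after ligation, against 9614, 7537 and 7217 CPM in mock 1, mock 2 and mock 3. The ligated value lay below every mock value, a log2 difference of -0.60 ± 0.22 (SE) with adjusted p = 0.757 by edgeR's quasi-likelihood test. Myh11 was at 4660 against 10319, 5998 and 5277 CPM, and Tagln at 10398 against 14463, 12193 and 11175 CPM. Both also lay below all 3 mock libraries, by -0.63 ± 0.37 (adjusted p = 0.780) and -0.28 ± 0.19 (adjusted p = 0.802) on the log2 scale in the edgeR fit.

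Lmod1 was the 1 member above all 3 mock libraries in smooth muscle cells, at 990 CPM against 938, 721 and 611 CPM. Its log2 difference was 0.39 ± 0.29 (edgeR adjusted p = 0.809). Acta2, at 15044 against 20479, 14095 and 13437 CPM, lay within the mock range with a log2 difference of -0.09 ± 0.25. Myl9, Cnn1, Des, Tpm1 and Actg2 lay within the mock range as well, at log2 differences of -1.35 (Actg2, on 17 UMIs in the ligated library) to 0.10 (Myl9). In all but Lmod1 the highest of the 4 libraries was mock 1.

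None of the 10 members passed an adjusted p of 0.05 in smooth muscle cells by edgeR, and none by DESeq2. Over the whole table edgeR passed 0 of 8014 genes (0%), 509 (6.35%) had an unadjusted p under 0.05, and DESeq2 passed 6. Of the members, 1 had an unadjusted p under 0.05, Tpm2, at 0.0253. The 3 members below all mock libraries are to be read against 26.0% of all genes tested, and the 1 above against 27.8%, so the first share is near the background and the second is below it. Under removal of doublets by rank Actg2 joined the members below, which made 4 beside 26.1% of genes, and Lmod1 stayed the 1 above beside 26.9%. Leaving out mock 1, which changes the spread, let 1011 of the 8014 genes pass, 5 members among them: Tpm2 (log2 -0.46) and Myh11 (-0.27) lower, and Lmod1 (0.58), Cnn1 (0.58) and Myl9 (0.22) higher.

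**Figure D2:**
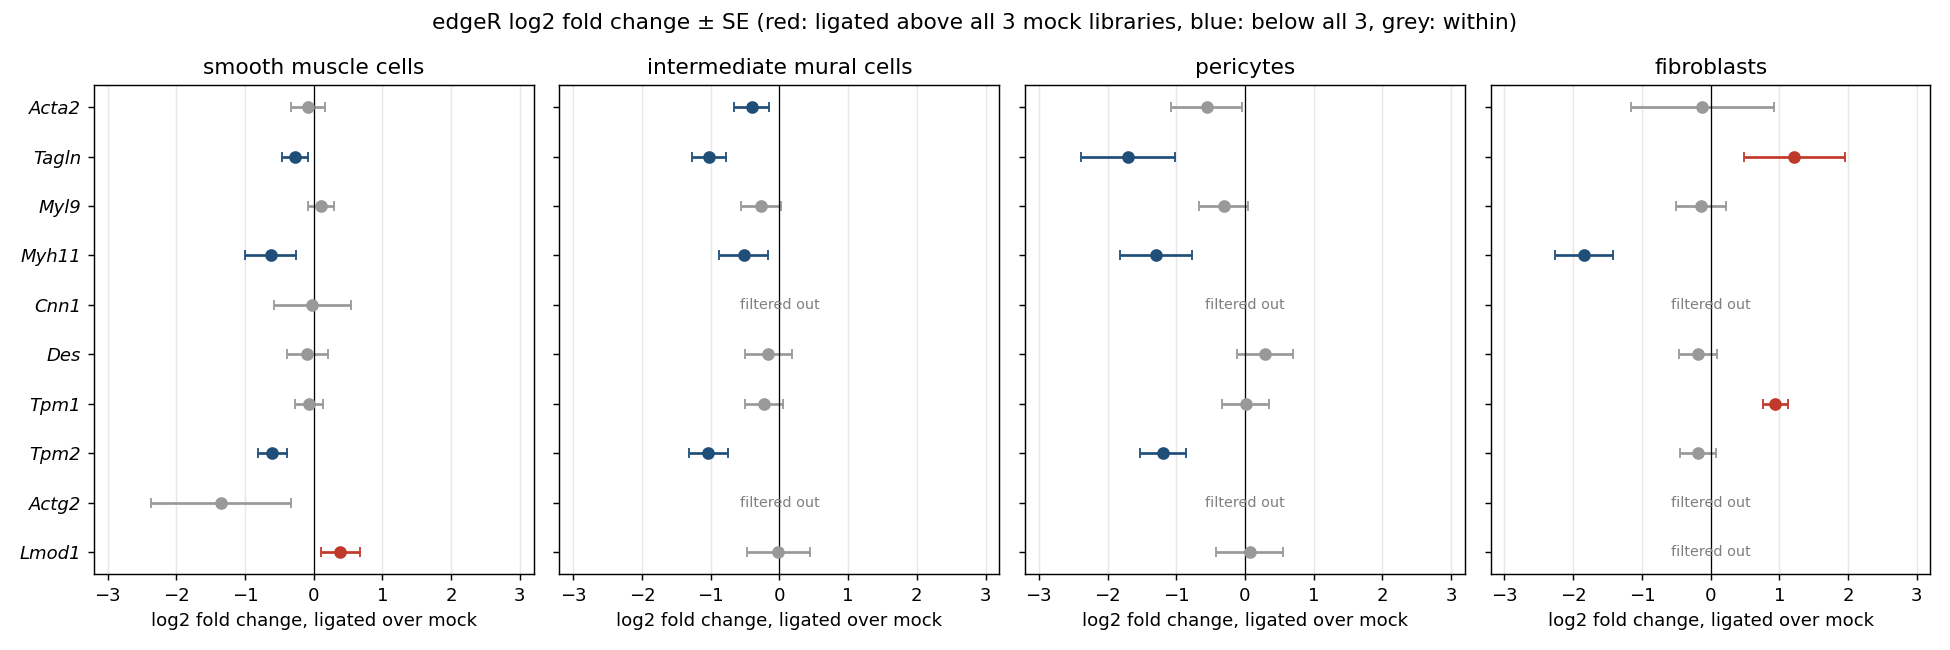
Log2 fold change of the ligated over the mock libraries with its SE (edgeR) for the 10 genes in 4 classes, coloured by whether the ligated library lay above, below or within the 3 mock libraries. Tagln, Myh11 and Tpm2 lie below 0 in all 3 mural panels, and in fibroblasts Tagln and Tpm1 lie above 0; no gene passed an adjusted p of 0.05.

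In the intermediate mural cells the same 3 members and Acta2 lay below every mock library. Tagln was at 3165 CPM against 7107, 5737 and 6463 CPM, a log2 difference of -1.02 ± 0.25 (edgeR adjusted p = 0.444). Tpm2 was at 1794 against 4326, 3171 and 3549 CPM, a difference of -1.04 ± 0.28 (adjusted p = 0.596). For both, the ligated level was well clear of the mock range. Acta2, at 5059 against 7898, 5806 and 6391 CPM, and Myh11, at 2154 against 4359, 2586 and 2322 CPM, lay just below the lowest mock library. The other 4 members tested, Myl9, Des, Tpm1 and Lmod1, lay within the range, and Cnn1 and Actg2 did not pass the filter on low counts. The 4 of 8 below all mock libraries stand beside 26.8% of all genes, and 0 of 8 lay above beside 27.0%. These counts depended on how the cells were chosen. Under removal of doublets by rank 5 of 8 lay below beside 26.1%, Tpm1 being added, and with mural genes scaled over all libraries together all 8 tested lay below beside 23.8%. Scaling within each library was chosen after the data were seen. Of 6907 genes, 3 passed by edgeR (0.0434%), none of them a member; an unadjusted p under 0.05 was found for 2 members, Tagln and Tpm2, and for 6.44% of genes. Without mock 1, 572 genes passed, Tagln (-0.92) and Tpm2 (-0.88) among them as lower.

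In pericytes Tpm2 was at 565 CPM against 1630, 1192 and 1053 CPM, a log2 difference of -1.19 ± 0.34 (edgeR adjusted p = 0.60). With doublets removed by rank it was -1.09 ± 0.30, again below every mock library. Tagln, at 227 against 1306, 508 and 407 CPM, and Myh11, at 128 against 471, 278 and 194 CPM, differed by -1.70 ± 0.69 and -1.30 ± 0.52 on the log2 scale (edgeR adjusted p = 0.667 for both). Those 2 differences shrank to -0.29 ± 0.29 and -0.49 ± 0.28 with doublets removed by rank, where Tagln was at 578 against 838, 613 and 669 CPM. Tagln and Acta2 were carried by a minority of the pericytes in most libraries: 19.3% of them had a Tagln UMI after ligation, against 58.0%, 31.0% and 31.2% for mock 1, mock 2 and mock 3.

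Acta2 in pericytes lay within the mock range, at 406 against 947, 472 and 375 CPM, and changed sign with the treatment of doublets, from -0.56 to 0.20 on the log2 scale. Des was at 381 against 449, 243 and 243 CPM, and Tpm1 at 952 against 1261, 784 and 787 CPM, both within the range. Myl9 and Lmod1 also lay within it. Of the 8 members tested, 3 lay below all mock libraries beside 25.9% of all genes, and 0 lay above beside 26.4%. With doublets removed by rank the counts were 3 below beside 26.1% of genes and 2 above, Acta2 and Tpm1, beside 26.3%. Of 7928 genes 4 passed by edgeR (0.0505%), none of them a member. An unadjusted p under 0.05 was found for 3 members, the same ones, and for 7.30% of genes. Without mock 1, 1308 genes passed, among them Tpm2 (-0.97), Tagln (-0.99) and Myh11 (-0.87) as lower and Des (0.66) as higher.

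Markers of other cells moved with the ligated library in the mural classes, and their part in these differences was not tested. The 10 macrophage and monocyte markers summed to 102 to 188 raw CPM in the ligated mural classes and to 0 to 37.4 in the mock ones, with 1 to 3 of the 10 at 0 in the ligated library and 6 to 10 in the mock ones. The 9 natural killer and innate lymphoid markers summed to 147 to 336 against 4.55 to 32.2. The 6 red cell markers stood at 7389 raw CPM in the smooth muscle cells of mock 1 and at 8748 in the pericytes of mock 3, against 71.4 and 123 in the same classes of the ligated library. The pericyte class itself was lower in its own markers after ligation, and the part of this was not tested either: the 11 pericyte markers summed to 8063 raw CPM against 11412, 13271 and 13908, and the 13 smooth muscle markers to 942 against 1160, 1446 and 1435.

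Among the other genes of the contractile apparatus (30 listed), 29 were tested in smooth muscle cells: 13 lay below all mock libraries beside 26.0% of all genes, and 4 above beside 27.8%. The median log2 difference was -0.20 against -0.03 over all genes, and 0 passed in either direction. Cacna1c, the pore of the calcium channel that triggers contraction, was at 107 CPM against 111, 746 and 738 CPM in mock 1, mock 2 and mock 3, so it was apart from mock 2 and mock 3 only. Ldb3, a Z-disc protein, was at 65.1 CPM against a mock mean of 162 ± 27.1 (SD, n = 3), and Synpo2 at 288 against 650 ± 182. Pdlim5, also an actin-associated protein, was at 69.2 against 125 ± 33.9. In pericytes 23 were tested, 5 below beside 25.9% of all genes and 5 above beside 26.4%, with a median of -0.13 against -0.04 over all genes, and 0 passed in either direction. The lowest there was Ppp1r14a, at 168 CPM against 490 ± 174, which was also low in the intermediate mural cells, at 241 against 597 ± 9.14. Of 29 tested in those cells, 10 lay below beside 26.8% of all genes and 4 above beside 27.0%, with a median of -0.29 against -0.05 over all genes, and 0 passed.

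The SRF and myocardin axis (20 genes listed, 18 in the files) had 14 genes tested in smooth muscle cells, 8 below all mock libraries beside 26.0% of all genes and 3 above beside 27.8%, with a median of -0.78 against -0.03 over all genes and 0 passing. Myocd, which encodes myocardin, the muscle-restricted partner of SRF, was at 77.5 CPM against 149 ± 8.98 in smooth muscle cells and at 26.5 against 61.7 ± 12.2 in intermediate mural cells, below all mock libraries in both (log2 -0.94 ± 0.29 and -1.19 ± 0.49, edgeR adjusted p = 0.757 and 0.765). Heyl, a transcription factor downstream of Notch, was at 72.0 against 141 ± 21.1 CPM in smooth muscle cells. Tead1, a factor that works with YAP and TAZ, was at 63.7 against 169, 90.4 and 74.5 CPM, and Prrx1 was above the mock range at 244 against 224, 181 and 197 CPM. In intermediate mural cells 11 genes of the axis were tested, 5 below beside 26.8% of all genes and 2 above beside 27.0% (median -0.42 against -0.05). In pericytes 11 were tested, 3 below beside 25.9% and 2 above beside 26.4% (median -0.02 against -0.04), with 0 passing in either class.

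Myofibroblasts are defined by Acta2 in fibroblasts, and there the sum over all fibroblasts and the count of cells gave different pictures. The sum was at 30.1 CPM in the ligated library and at 6.95, 27.3 and 62.2 CPM in mock 1, mock 2 and mock 3. The ligated value lay within the mock range, a log2 difference of -0.12 ± 1.04 (edgeR adjusted p = 0.964). In the mock libraries with the high sums, though, 2 cells each held nearly all of it: 90 of the 97 Acta2 UMIs of mock 2 (92.8%) and 235 of the 247 of mock 3 (95.1%). All 4 of these cells carried Notch3, a mural marker, and Myh11, and 3 carried Rgs5. In the ligated library the 339 Acta2 UMIs were spread over 228 of 1214 fibroblasts, and the 5 cells with 5 or more held 12.4% of them. None of those 5 carried Myh11, 1 carried Rgs5 or Notch3, and all 5 carried Postn (periostin, a matrix protein of fibroblasts). Of the 1209 ligated fibroblasts with under 5 Acta2 UMIs, 25 carried Myh11, 149 Rgs5 or Notch3, and 771 Postn.

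With doublets removed by rank, none of the fibroblasts with 5 or more Acta2 UMIs was left in any mock library, and Acta2 was at 28.8 CPM in the ligated library against 6.54, 2.30 and 3.25 CPM. The ligated library then lay above all 3 mock libraries, with a log2 difference of 2.90 ± 0.51, and still did not pass (edgeR adjusted p = 0.159). Leaving out instead every fibroblast with 5 or more Acta2 UMIs, a choice made on the gene itself and given with no test, put Acta2 at 24.8 raw CPM against 6.81, 2.08 and 3.14.

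**Figure D3:**
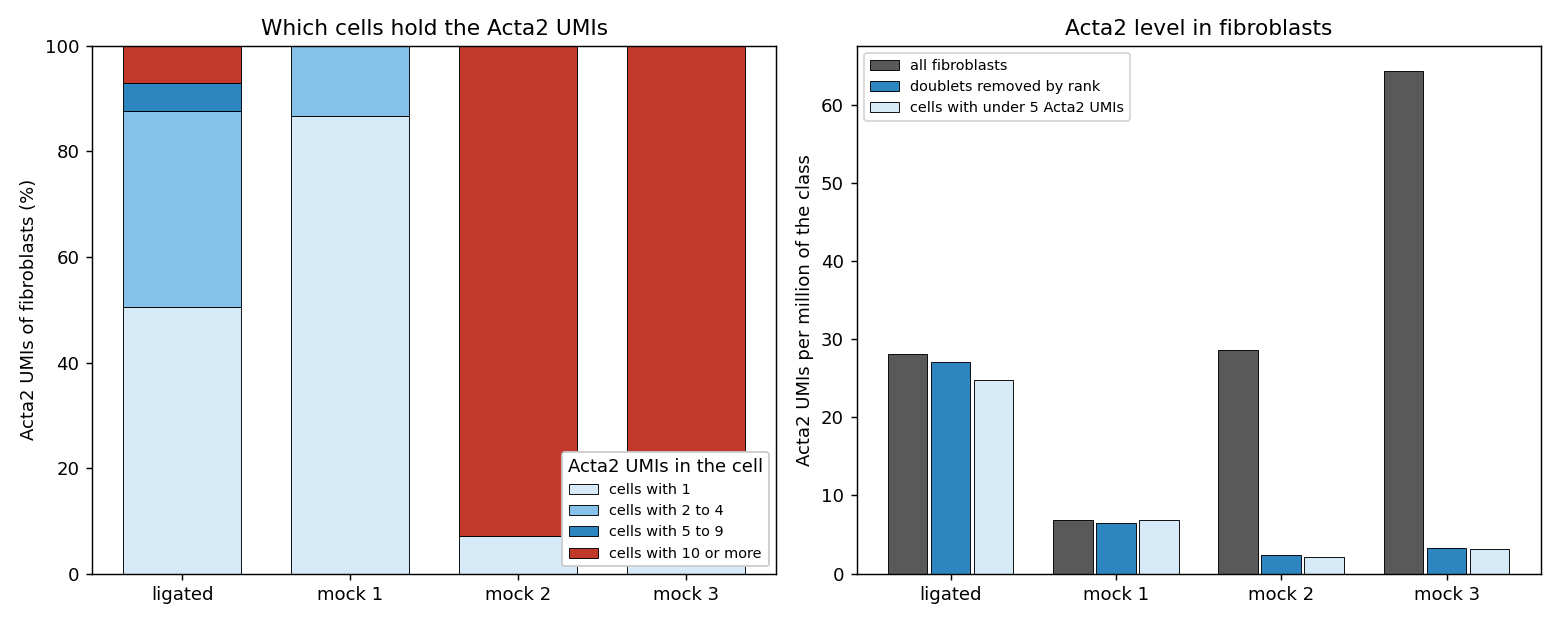
Left, the share of each library's fibroblast Acta2 UMIs (percent) that sits in cells with 1, 2 to 4, 5 to 9, and 10 or more of them; right, the Acta2 level in raw CPM for all fibroblasts, with doublets removed by rank, and for cells with under 5 Acta2 UMIs. Cells with 10 or more hold 92.8% and 95.1% of the UMIs in mock 2 and mock 3, and without them the ligated library is the highest of the 4.

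Tagln in fibroblasts was above every mock library, at 47.4 CPM against 6.03, 22.5 and 31.0 CPM, a log2 difference of 1.22 ± 0.74 (edgeR adjusted p = 0.505). With doublets removed by rank the mock values were 5.54, 1.32 and 2.37 CPM beside 48.8 in the ligated library, and the difference was 4.08 ± 0.58 (adjusted p = 0.118). Tpm1 was at 246 CPM against 136, 126 and 123 CPM, a difference of 0.94 ± 0.18 (adjusted p = 0.234), and at 1.05 ± 0.19 (adjusted p = 0.167) with doublets removed by rank. The 3 mock values of Tpm1 lay close together (SD 7.12 CPM), and the ligated value was well above them. Tpm1 is also used outside muscle. T cells held it at 45.1 to 47.7 raw CPM in all 4 libraries, while endothelial cells held it at 159 after ligation against 177, 165 and 153, above the 133, 132 and 127 of mock fibroblasts.

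The other members tested in fibroblasts lay within the mock range or below it. Myl9 was at 43.6 CPM against 40.8, 39.1 and 64.2 CPM, Des at 18.2 against 23.6, 20.8 and 17.9 CPM, and Tpm2 at 58.8 against 54.2, 72.0 and 73.3 CPM, all within the mock range. Myh11 lay below all 3 mock libraries, at 2.31 against 8.34, 7.59 and 9.06 CPM (log2 -1.84 ± 0.42, adjusted p = 0.276), on 26, 18, 27 and 36 UMIs. Without the 4 Acta2-rich mock cells Myh11 was at 0 and 1.05 raw CPM in mock 2 and mock 3, and with doublets removed by rank the difference was -0.28 ± 1.89. Cnn1, Actg2 and Lmod1 had 0 to 8 UMIs per library and did not pass the filter. Of the 7 members tested, 2 lay above all mock libraries beside 30% of all genes, and 1 below beside 28.7%. With doublets removed by rank 4 lay above (Acta2, Tagln, Tpm1 and Myl9) beside 30% of all genes, and 0 below beside 28.8%. Of these, Myl9 lay just above the highest mock library, at 45.5 CPM against 41.3, 28.3 and 37.9 CPM (log2 0.35 ± 0.29). The 8 mural markers summed to 915 raw CPM in ligated fibroblasts and to 869, 1580 and 1713 in mock ones, and the 9 natural killer markers to 405 against 67.6, 188 and 155; their part in these values was not tested.

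None of the 7 passed an adjusted p of 0.05 in fibroblasts by edgeR or DESeq2. Over all genes edgeR passed 0 of 12480 (0%), 1522 (12.2%) had an unadjusted p under 0.05, and DESeq2 passed 277. Tpm1 (0.00424) and Myh11 (0.00824) were the members with an unadjusted p under 0.05. Without mock 1, where surgery and software version coincide, the members that passed were Tpm1 (0.98) and Tagln (0.81), higher, and Myh11 (-1.85), Acta2 (-0.595) and Tpm2 (-0.31), lower. The lower Acta2 rests on the sums of mock 2 and mock 3, which 2 cells each nearly filled. With doublets removed by rank and all mock libraries kept, the sign of Acta2 was the opposite (2.90).

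Because most ligated fibroblasts fell in the cluster led by Spp1, the same levels were read within it. Tagln was at 46.0 raw CPM in its 1173 ligated cells and at 17.2, 0 and 13.3 in its 70, 35 and 55 mock cells, on 11, 0 and 3 UMIs. Acta2 was at 29.0 against 14.1, 5.43 and 8.87, on 9, 1 and 2 mock UMIs, and none of the 4 Acta2-rich mock cells lay in this cluster, since 96 and 245 of the Acta2 UMIs of mock 2 and mock 3 lay in the cluster led by Lsamp. Tpm1 was at 233 against 194, 158 and 164. The ligated library was the highest for all 3 genes. For Tagln its exact Poisson 95% interval (42.2 to 50.1) lay above those of all 3 mock libraries, the highest of which reached 38.9. For Acta2 (25.9 to 32.2) and Tpm1 (224 to 242) it overlapped theirs, that of mock 1 being 6.43 to 26.7 for Acta2 and 161 to 231 for Tpm1. Myl9 and Des had their lowest value in the ligated cells of this cluster, with intervals that overlap that of mock 2, Myl9 at 42.1 against 71.8, 48.9 and 115, and Des at 17.6 against 40.6, 38.0 and 44.3. Intervals here and below cover counting error only.

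The share of fibroblasts with a UMI was set beside T and endothelial cells, which should lack Acta2 and Tagln. With each cell thinned to 2000 UMIs, 5.01% of ligated fibroblasts had an Acta2 UMI (exact binomial 95% interval 3.83 to 6.43) and 1.04%, 0.730% and 0.921% of the fibroblasts of mock 1, mock 2 and mock 3. Unthinned shares were 18.8% against 6.76%, 2.12% and 2.25%, at median depths of 9473.5, 10780, 7869 and 6555 UMIs. In T cells the thinned share was 3.14% (2.27 to 4.22) in the ligated library and 1.5%, 0% and 0.298% in the mock ones (unthinned 8.20% in the ligated library, at a median of 4462 UMIs), and in endothelial cells 3.88% (3.25 to 4.59) against 2.25%, 0.863% and 0.481%. The interval of the ligated fibroblasts overlaps those of both background classes, which is no test of the difference. Other measures of the same cells lay further apart. Over all UMIs, Acta2 was at 28.1 raw CPM (exact Poisson 95% interval 25.2 to 31.3) in ligated fibroblasts, 17.2 (14.4 to 20.3) in T cells and 18.6 (16.7 to 20.6) in endothelial cells. At least 2 Acta2 UMIs, unthinned, were found in 4.70% (3.58 to 6.04), 0.999% (0.547 to 1.67) and 0.411% (0.24 to 0.657) of these cells, although the fibroblasts were the deepest of the 3 classes. The thinned share of T and endothelial cells was itself higher in the ligated library than in the mock ones.

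Tagln differed from Acta2 in this respect. Its thinned share was 6.14% (4.82 to 7.68) of ligated fibroblasts, against 1.79% (1.15 to 2.66) of ligated T cells and 2.37% (1.88 to 2.95) of ligated endothelial cells. In mock fibroblasts it was 0.518%, 0.973% and 1.10%, at or near their own background of 0.298% to 1.5% in T cells. The ligated fibroblasts held 533 Tagln UMIs for 339 of Acta2, while ligated T cells held 68 for 139 and endothelial cells 273 for 356. The Tagln share of ligated fibroblasts thus lay above that of T and endothelial cells beyond counting error, and the 2 genes did not stand in the ratio seen in those classes. Ligated glia-like cells, though, held Tagln at 40.6 raw CPM (29.8 to 54.0) and Acta2 at 30.2 (21.1 to 42.1), and the ligated fibroblasts held them at 44.2 (40.5 to 48.1) and 28.1. For Tpm1 the thinned share was 35.4% of ligated fibroblasts against 29.0%, 20.0% and 19.5%, with an interval (32.6 to 38.2) that overlaps that of mock 1 (22.7 to 36.0), and T cells held 7.52% to 10.1% in all 4 libraries. Endothelial cells are no background for Tpm1, with a thinned share of 26.0% after ligation against 26.9%, 27.6% and 24.8%.

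**Figure D4:**
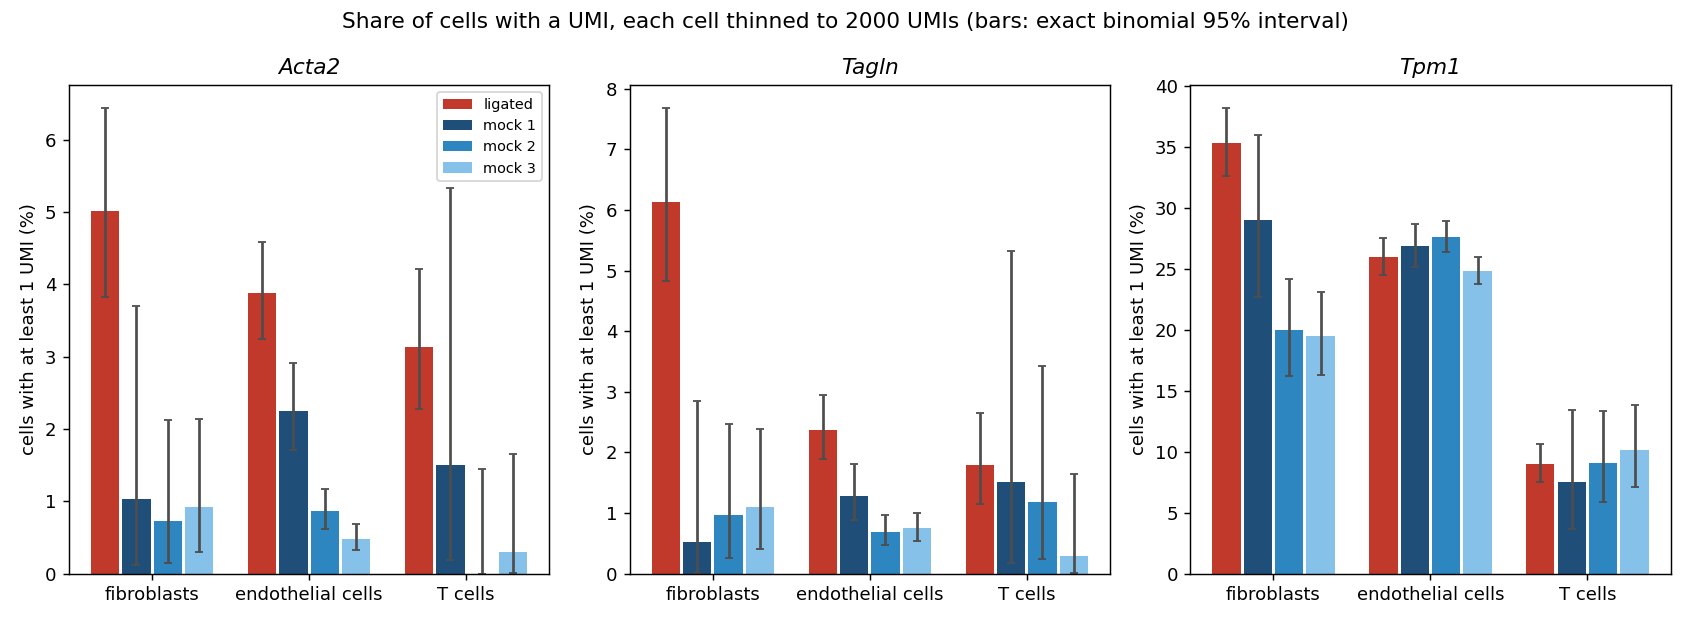
Percent of fibroblasts, endothelial cells and T cells with at least 1 UMI of Acta2, Tagln or Tpm1, each cell thinned to 2000 UMIs, by library, with exact binomial 95% intervals. Acta2 in ligated fibroblasts (5.01%) overlaps the ligated background classes (3.88% and 3.14%), and Tagln (6.14%) lies above them (2.37% and 1.79%).

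Cells with both Acta2 and Tagln, the pair a contractile fibroblast would hold, were few after thinning and more common without it. Unthinned, 67 of 1214 ligated fibroblasts (5.52%, interval 4.30 to 6.96) held both, against 0%, 0.472% and 0.865% of mock ones. In ligated T and endothelial cells, which were shallower, the unthinned share was 0.713% and 0.532%. After thinning, 7 of 1157 ligated fibroblasts (0.605%, interval 0.244 to 1.24) held both, against 0 of 193, 2 of 411 and 2 of 543 in the mock libraries. At least 3 of the 10 genes were found together in 2.85% (1.97 to 3.98) of ligated fibroblasts and in 1.04%, 0.730% and 0.737% of mock ones. The ligated interval overlaps those of mock 1 (0.126 to 3.69) and mock 2 (0.151 to 2.12) and not that of mock 3 (0.201 to 1.88). In ligated T cells the share with at least 3 was 0 of 1339 (exact interval up to 0.275%), and in ligated endothelial cells 0.270%. Several of the genes in 1 cell were thus found more often in ligated fibroblasts than in ligated T and endothelial cells, with intervals that do not overlap. Mock fibroblasts were likewise above mock T cells, of which 0% held at least 3, and the count includes Tpm1. Of the ligated pericytes, thinned alike, 79.3% held at least 3.

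The matrix and signalling genes listed for myofibroblasts (27 listed, 25 in the files) were read in the same fibroblasts. Neither they nor the lists below were read within the cluster led by Spp1, which held 1173 ligated cells and 70, 35 and 55 mock cells. The part of this unlike makeup in their values was not tested. Of 24 tested, 18 lay above all 3 mock libraries beside the 30% of all genes, and 2 below beside 28.7%, with a median log2 difference of 1.08 against -0.03 over all genes. None passed in either direction, the smallest adjusted p being 0.135 (edgeR). Ltbp2, which binds microfibrils, was at 201 CPM against a mock mean of 2.64 ± 4.14 (SD, n = 3). Col8a1, a short-chain collagen, was at 505 against 28.4 ± 14.4, Postn at 642 against 101 ± 41.5, and Lox, which cross-links collagen, at 380 against 151, 37.1 and 33.2. The list was drawn up with earlier results of these libraries known, so its direction is not independent evidence.

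Over mock 1 alone, which shares the software version with the ligated library, the median of that list was 0.58 in place of 1.08. In smooth muscle cells 15 of these genes were tested, 0 above beside 27.8% of all genes and 5 below beside 26.0% (median -0.35 against -0.03), with Fstl1 at 91.4 against 155 ± 25.5 CPM and Itgb5 at 116 against 136 ± 9.29 CPM. In pericytes 1 of 13 lay above beside 26.4% and 7 below beside 25.9% (median -0.48 against -0.04). Fap, a surface protease, was there at 144 against 147, 463 and 420 CPM, close to mock 1, with Postn at 363 against 626 ± 180, Itgav at 54.4 against 90.3 ± 17.7 and Col1a1 at 157 against 257 ± 33.0 CPM. In intermediate mural cells 2 of 13 lay above beside 27.0% and 3 below beside 26.8% (median -0.21 against -0.05). Again 0 passed in any of these classes.

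**Figure D5:**
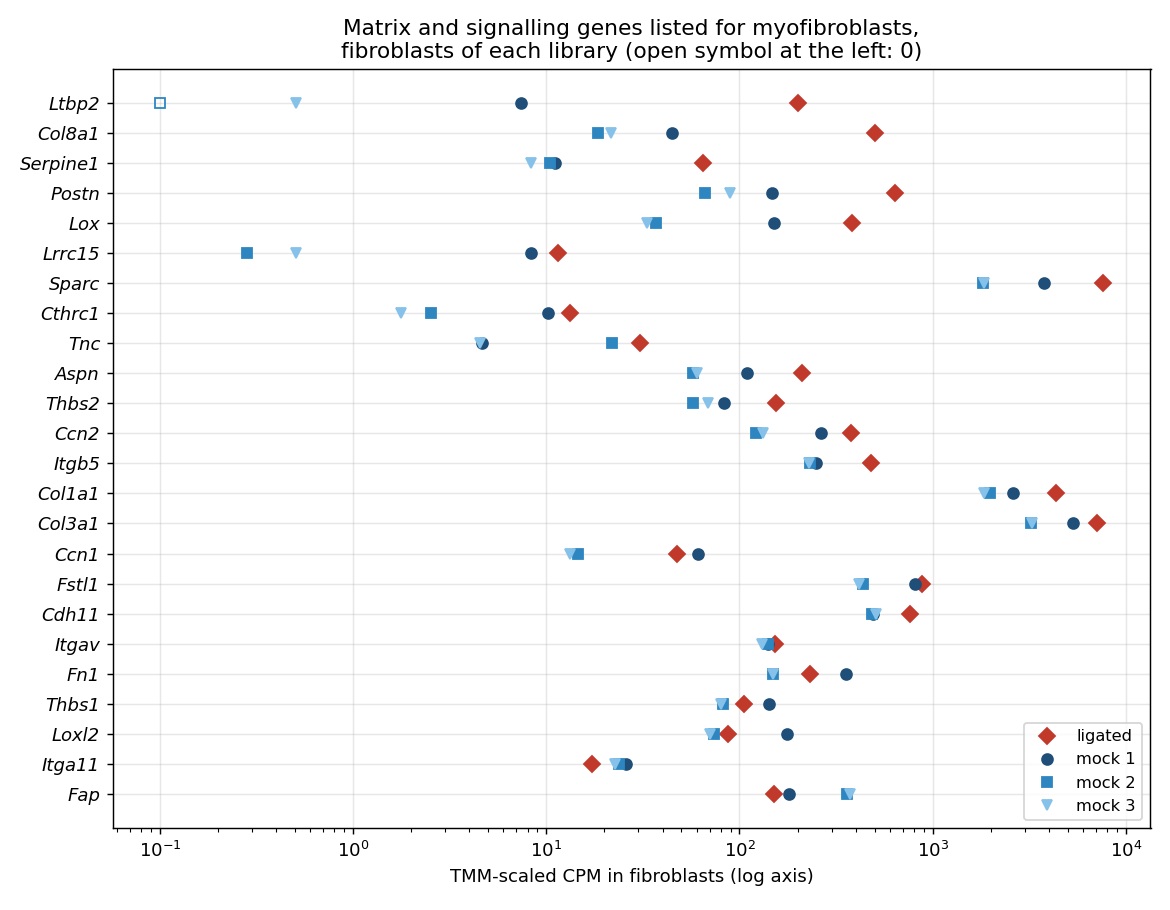
TMM-scaled CPM (log axis) of the 24 tested genes listed for myofibroblasts in the fibroblasts of each library. The ligated library is the highest of the 4 for 18 genes and the lowest for 2, Itga11 and Fap.

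Of the other contractile genes in fibroblasts 26 were tested, 11 above all mock libraries beside 30% of all genes and 8 below beside 28.7%. Their median was 0.38 against -0.03 over all genes, it became -0.01 over mock 1 alone, and 0 passed. Mylk, the kinase of the myosin light chain, was at 277 CPM against 141 ± 11.2, Actn1, the actinin of stress fibres, at 143 against 67.1 ± 26.6, and Cald1 (caldesmon) at 1088 against 587 ± 182. Csrp2, a LIM protein of smooth muscle, was at 75.5 against 258, 115 and 97.4 CPM. Of the SRF axis 15 were tested, 7 above and 3 below beside the same shares of all genes (median 0.06, 0 passed), with Fhl2, a LIM cofactor, at 157 against 38.7 ± 4.92, Heyl at 86.1 against 39.2 ± 5.06, Wwtr1 (TAZ) at 225 against 181 ± 16.7 and Tead1 at 81.5 against 76.9, 57.9 and 68.0 CPM. Among the cytoplasmic actins and their myosins, 3 of 6 lay above beside 30% and 0 below beside 28.7% (median 0.58, 0 passed). Actb was at 3732 against 3616, 1565 and 1491, close to mock 1, Myh9 at 351 against 289, 169 and 169, and Myl12a at 462 against 299 ± 17.4 CPM. Of the striated muscle paralogs 2 were tested, 1 above and 1 below. In smooth muscle cells 4 paralogs and 5 cytoplasmic genes were tested, with 0 and 1 above beside 27.8% of all genes and 2 and 0 below beside 26.0%, the 1 above being Actg1 at 840 against 817, 621 and 573 CPM.

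Whether ligation acted differently in fibroblasts and in smooth muscle cells was tested as a class by surgery term. Of 11718 genes 92 passed (0.785%), none of them a member, and 8.99% had an unadjusted p under 0.05. The nearest was Tpm1, whose log2 difference was larger in fibroblasts by 0.98 ± 0.24 (edgeR adjusted p = 0.0893), followed by Myh11 at -1.33 ± 0.40 (0.210) and Tagln at 1.49 ± 0.55 (adjusted p = 0.376). Between pericytes and smooth muscle cells 9 of 8980 genes passed (0.100%), again with no member, and 5.98% had an unadjusted p under 0.05. Tagln was the nearest, at -1.22 ± 0.35 (adjusted p = 0.390), and Tpm2 was at -0.55 ± 0.26 (adjusted p = 0.807).

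A small mural cluster that also held fibroblast markers, 28 cells in the ligated library and 6, 10 and 18 in the mock ones, was left out of all classes and held the contractile genes at high levels in every library. Acta2 was at 3759 raw CPM against 3922, 3918 and 4483, and Tagln at 2842 against 2801, 3994 and 3923. The exact Poisson interval of the ligated Acta2 level (3438 to 4102) overlaps those of all 3 mock libraries, and that of Tagln (2564 to 3142) overlaps mock 1 alone. These intervals leave out the spread between cells, which are few, so they do not show a difference in Tagln. All 4 levels are far above those of the fibroblast class. Whether these cells are doublets was not tested.

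Counted over all analysed cells, the 10 genes made up 0.101% of ligated UMIs against 0.319%, 0.114% and 0.113% for mock 1, mock 2 and mock 3. Mural cells held 73.8% of the members' UMIs in the ligated library and 90.5%, 84.2% and 83.2% in the mock ones, so the ligated library was the lowest. Smooth muscle cells were 26.2% of the named mural cells in the ligated library (exact binomial 95% interval 22.4 to 30.4) and 29.4%, 26.9% and 26.0% in the mock ones. Pericytes were 52.5% (47.9 to 57.0) against 42.0%, 49.8% and 47.1%, and intermediate cells 21.3% (17.7 to 25.2) against 28.6%, 23.3% and 26.9%. The interval of each ligated share included at least 1 mock value.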

How the data were processed

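The deposited matrices hold raw UMI counts per gene and barcode, 1 per library, made by the authors with Cell Ranger on mm10. Per the file headers the version was 6.0.1 (ligated, mock 1) or 7.0.0 (mock 2, mock 3), and per the submitters' processing notes 7.0.1. The setting for intronic reads is not given here. Barcodes under 500 UMIs or 300 genes, or over 15% mitochondrial UMIs, were dropped. After Scrublet, 12567, 4520, 9246 and 12689 barcodes remained in the ligated library, mock 1, mock 2 and mock 3. Removal by rank took the top 0.8% of scores per 1000 barcodes in each library.

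Clustering used scanpy 1.11.5 and leidenalg 0.10.2 (2000 variable genes without the contractile genes, 30 principal components, 15 neighbours, resolution 1). It gave 40 clusters, named from lists of markers for mural, smooth muscle, pericyte, fibroblast, endothelial, lymphatic endothelial, glial, epithelial, myoepithelial, T, NK or innate lymphoid, macrophage, dendritic, B, neutrophil or mast and erythroid cells. Scaling mural genes within each library and the intermediate mural class were chosen after seeing the data.

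UMIs were summed per class and library. Sums were tested with edgeR 4.0.16 in R 4.3.3 (quasi-likelihood F test, TMM, filterByExpr, Benjamini-Hochberg over all genes of the class, threshold 0.05), with DESeq2 1.42.0 as an alternative. The fit takes the spread from the mock libraries and applies it to the ligated one. The differences between classes used a class by surgery term with library as a term. The fitting code was tested on simulated data. Beside the members, up to 4 genes per list and class were named: those of largest absolute log2 fold change outside the mock range with a mean of at least 50 CPM. Genes of like pattern were ranked by Pearson's r of log2(CPM + 10). The members and lists were chosen with earlier results of these data known.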

Additional observations from a re-analysis of the deposited data

How the results depend on the processing

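No direction was reversed among members outside the mock range. Direction was not checked for members within the range. Of 315 single gene values under an alternative, 280 were counted as the same, which means only that they stayed on the same side of the threshold. A value could move far and still count. With doublets removed by rank, Acta2 went from -0.12 to 2.90 on the log2 scale in fibroblasts and from -0.56 to 0.20 in pericytes. The 280 include each member's ratio over mock 1 alone, which has no p-value and was checked for direction only. The other 35 passed the threshold only under the alternative, 16 without mock 1 and 19 with the software version as a term. That term leaves the contrast to the ligated library and mock 1, with the spread from mock 2 and mock 3. With it 7, 3, 5 and 4 members passed in smooth muscle, intermediate, pericyte and fibroblast sums, and 750, 300, 504 and 3313 of all genes. Leaving out 1 mock library gave 0 to 5, 0 to 2, 0 to 4 and 0 to 5 members in the same order, and 0 to 1011, 2 to 572, 5 to 1308 and 0 to 6878 genes, the highest always without mock 1. With no filter on low counts 33, 129, 13 and 23 genes passed, and DESeq2 passed 6 in smooth muscle cells, 9 in pericytes and 277 in fibroblasts. Smooth muscle cells gave 3 genes with the contractile genes kept for clustering and 1 with doublets removed by rank, where pericytes gave 0. Scaling mural genes over all libraries gave 8 in intermediate cells, and for pericytes it was not run because only 4 ligated cells were left. Between fibroblasts and smooth muscle cells, no filter gave 3 members and 274 genes, and leaving out a mock library 0 to 6 and 39 to 597. Between pericytes and smooth muscle cells these were 1 and 31, and 0 to 1 and 17 to 73. The cause was not tested, and without mock 1 surgery and software version cannot be told apart.

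The gap in the share of fibroblasts with an Acta2 UMI, ligated less the mock mean, was 4.12 percentage points. It was 2.53 thinned to 1000 UMIs, 6.67 thinned to 3000, 15.1 unthinned, 0.147 for at least 2 UMIs thinned to 2000, and 3.88 with doublets removed by rank. Unthinned, at least 2 UMIs were found in 4.70% of ligated and 0.483%, 0.472% and 0.519% of mock fibroblasts. The slope from smooth muscle cells to pericytes, as the median over the members, moved by less than its spread. Levels of single members in pericytes did move. With doublets removed by rank, Tagln there was at 578 CPM after ligation against 838, 613 and 669 CPM, in place of 227 against 1306, 508 and 407 CPM. Acta2 was at 778 against 730, 623 and 682 CPM, in place of 406 against 947, 472 and 375 CPM. No paired analysis was possible because no label pairs the ligated library with a mock library. With 1 ligated library, a difference between surgeries and between libraries cannot be told apart.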
